A study of Rattus norvegicus with 8 samples.

Results

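The transforming growth factor beta (TGF-beta) ligands, receptors and SMADs were followed in rat thymocytes, the lymphocytes that mature in the thymus. The 10 genes were chosen by name from the array's own gene names, allowing the older name Madh for a SMAD, and 12 probes of the 41012 non-control probes carried them, or 10 of 35561 names. Tgfbr1 had 3 probes and each other gene had 1. The accession of all 12 probes was found in the RefSeq gene table under the same symbol.

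Primary thymocytes came from adrenalectomized male Sprague-Dawley rats, with the thymi of 3 rats pooled for a preparation. Both groups were unmodified cells cultured for 6 hours, either with no hormone added (4 arrays, Control) or in 100 nM dexamethasone (4 arrays, Dex), a synthetic glucocorticoid that kills thymocytes. Adrenalectomy, which removes the animals' own corticosterone, was common to both groups. The labels do not say which cultures came from which pool, so the p-values measure the spread between arrays.

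TGF-beta ligands are secreted in a latent form and, once released, bind the type II receptor Tgfbr2, which then phosphorylates the type I receptor Tgfbr1. Tgfbr1 phosphorylates Smad2 and Smad3, which join Smad4 and enter the nucleus, while Smad7 is an inhibitor that the pathway itself induces. In the thymus the pathway is known for its part in the development of regulatory T cells, natural killer T cells and CD8 lineage cells, and apoptotic T cells are a known source of TGF-beta.

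Each value is a log2 signal after quantile normalization of the arrays, and it can be compared between arrays for 1 probe but not between probes. Between 24937 and 34488 probes were well above background on an array and no spot was saturated. Of 12 thymocyte markers, 11 were matched to the array by name, which is what being on the array means for every list here. All 11 were above background on all 8 arrays, and none passed the test. In sign 8 of the 11 were negative, with a median log2 fold change of -0.13. Without overlap between the groups Ptcra was lower in Dex (-0.61, limma adjusted p = 0.154) and Cd8b higher (0.52, adjusted p = 0.326). Cd8b had no value on Control 1, so its result rests on Control 2, 3 and 4. The arrays lay on 3 slides. Slide 1 held Control 1 and Dex 3, slide 2 held Control 2, 3 and 4, and slide 3 held Dex 1, 2 and 4. Dex 1 and Dex 2 had fewer probes above background (26496 and 24937) than Dex 3 and Dex 4 (33301 and 33426).

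The 60-base probes of the ligand Tgfb1 and of both signaling receptors are shown first, because the values below turn on them. They are written in the sense of the mRNA, with positions on genome build rn3. The Tgfb1 probe lies at chr1:80988234-80988293 on the plus strand, in the part of the message that encodes the mature ligand. Probe 1 of Tgfbr1 lies at chr5:64013804-64013863 on the plus strand, in the part that encodes the extracellular domain. The Tgfbr2 probe lies at chr8:120628433-120628492 on the minus strand, in the part that encodes the intracellular kinase domain.
Tgfb1: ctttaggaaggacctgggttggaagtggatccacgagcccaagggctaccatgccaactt
Tgfbr1 probe 1: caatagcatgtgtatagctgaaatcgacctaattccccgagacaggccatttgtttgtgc
Tgfbr2: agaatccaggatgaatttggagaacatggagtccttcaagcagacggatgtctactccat

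None of the 10 genes passed the test between Dex and Control (limma, Benjamini-Hochberg adjusted p over all 41012 probes, threshold 0.05), where 319 of all probes, or 0.778%, did. The nearest was Tgfbr1, whose probe 1 was 2.32-fold higher in Dex at an adjusted p of 0.129, while the other 11 member probes had adjusted p-values of 0.606 to 0.986. At an unadjusted p under 0.05 stood 1 of the 12 probes, against 10.6% of all probes. Of the 12 log2 fold changes 6 were positive and 6 negative. Their median was 0.03 against 0.00 for all probes, and their median absolute size was 0.27, as it was for all probes. In bulk RNA of this kind, fewer cells of a type and less RNA per cell cannot be told apart.

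**Figure D1:**
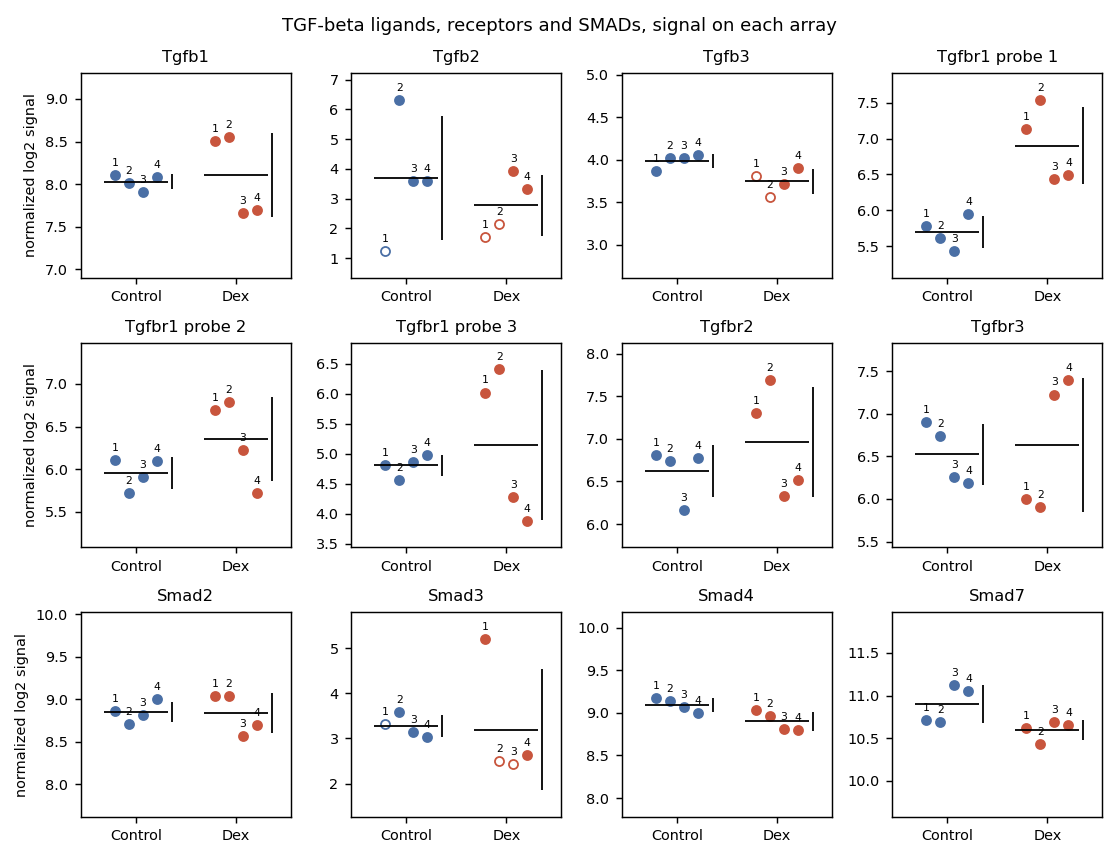
Normalized log2 signal (vertical axes, which differ between panels) of each member probe on the 4 Control arrays (blue) and the 4 Dex arrays (red). Numbers are replicate numbers, open circles are arrays where the probe was not well above background, horizontal lines are group means and the vertical lines at the side span 1 SD to each side. Tgfbr1 probe 1 is higher on all 4 Dex arrays than on any Control array, and Tgfb1, Smad2 and Tgfbr1 probe 3 have Dex 1 and 2 above all Control arrays and Dex 3 and 4 below them.

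Among the ligands, Tgfb1, the main form in lymphocytes, had a log2 signal of 8.11, 8.02, 7.91 and 8.09 on Control arrays 1 to 4 and of 8.51, 8.55, 7.66 and 7.69 on Dex arrays 1 to 4. Dex 1 and Dex 2 lay above all Control arrays and Dex 3 and Dex 4 lay below all of them. The Control mean was 8.03 ± 0.09 (SD, n = 4) and the Dex mean was 8.10 ± 0.49 (SD, n = 4). Dex minus Control was 0.07 on the log2 scale, with a 95% confidence interval of -0.50 to 0.65 (limma adjusted p = 0.947).

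The Tgfb1 probe was printed in 10 spots on each array, which gives the error between spots of an array. The SD between spots was 0.03 to 0.07 on the log2 scale. On Dex 1 the spots spanned 8.42 to 8.54 and on Dex 2 they spanned 8.50 to 8.61. On Dex 3 they spanned 7.56 to 7.74 and on Dex 4 they spanned 7.58 to 7.80. The spots of all 4 Control arrays fell between 7.84 and 8.16. No spot of Dex 1 or Dex 2 therefore reached down to a Control spot, and no spot of Dex 3 or Dex 4 reached up to one. The spread between spots does not hold the variation of labeling, hybridization or culture, and what sets the distance between the Dex arrays was not tested.

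**Figure D2:**
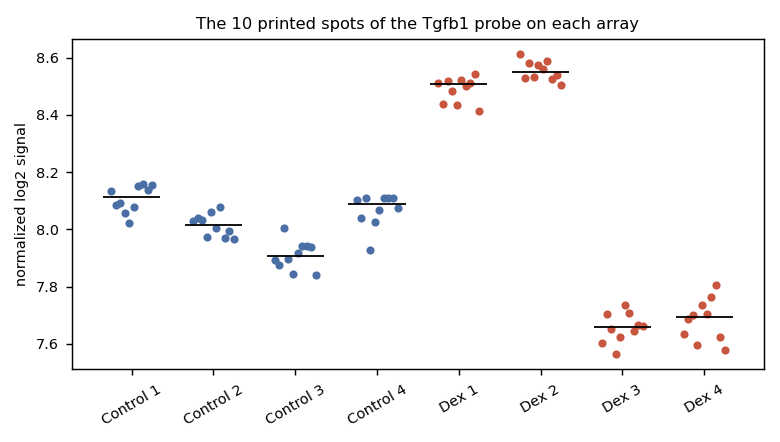
Normalized log2 signal (vertical axis) of the 10 printed spots of the Tgfb1 probe on each array (horizontal axis), with lines at the median of the spots. The spots of Dex 1 and 2 lie at 8.42 or higher, those of Dex 3 and 4 at 7.80 or lower, and the Control spots between 7.84 and 8.16.

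Tgfb2 and Tgfb3, the isoforms best known from mesenchyme and epithelium, were near background. Tgfb2 (chr13:102908405-102908464, minus strand) was above background on Control 2, 3 and 4 and on Dex 3 and 4. Its log2 signal was 1.24, 6.32, 3.59 and 3.59 on Control arrays 1 to 4 and 1.71, 2.15, 3.93 and 3.32 on Dex arrays 1 to 4. The groups overlapped widely, with Control holding both the lowest and the highest array. Dex minus Control was -0.91 with a 95% confidence interval of -3.21 to 1.40 (limma adjusted p = 0.811), and it was -0.03 without Control 2 and -1.72 without Control 1.

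Tgfb3 (chr6:110177387-110177446, minus strand) was above background on all Control arrays and on Dex 3 and 4. It gave 3.87, 4.02, 4.02 and 4.05 on Control arrays 1 to 4 and 3.81, 3.56, 3.71 and 3.90 on Dex arrays 1 to 4. Dex 4 lay above Control 1, and the other 3 Dex arrays lay below all Control arrays. Its log2 fold change was -0.24 with a 95% confidence interval of -0.58 to 0.09 (limma adjusted p = 0.640).

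Among the receptors, the type I receptor Tgfbr1 stood apart from the other members on 1 of its 3 probes. Probe 1 had a log2 signal of 5.78, 5.61, 5.43 and 5.95 on Control arrays 1 to 4 and of 7.14, 7.54, 6.43 and 6.50 on Dex arrays 1 to 4. All Dex arrays were above all Control arrays, and Dex 3 and 4 were the lower Dex arrays. Over all probes 4.6% were higher without overlap in this way, and 9.11% did not overlap in either direction, as 2 of the 12 member probes did not. The means were 5.69 ± 0.22 (SD, n = 4) and 6.90 ± 0.53 (SD, n = 4). Dex minus Control was 1.21 on the log2 scale with a 95% confidence interval of 0.57 to 1.85 (limma adjusted p = 0.129). As a ratio the difference was 2.32-fold, with an interval of 1.49 to 3.61.

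Whether Tgfbr1 probe 1 passed the threshold depended on the processing. It passed with arrays scaled to their 75th percentile (limma adjusted p = 0.0469) and with array weights (limma adjusted p = 0.0236). With slide as a random block it also passed (limma adjusted p = 0.0141, at a correlation within slides of -0.235). The signal to noise statistic that the study's methods define called it too, but at a looser cutoff. That cutoff was an unadjusted nominal p of 0.01 with an absolute fold of 1.2. It called 6.78% of probes, against 0.778% by limma at an adjusted p under 0.05. With slide as a fixed block the log2 fold change was 0.65, which is the distance between Dex 3 and Control 1, the arrays of slide 1. With normexp background correction it was 0.59 (limma adjusted p = 0.103).

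The other Tgfbr1 probes lie farther along the gene in the direction of transcription. Probe 2 (chr5:64036492-64036551) starts 22688 bases after probe 1, and probe 3 (chr5:64037313-64037372) starts 821 bases after probe 2. Probe 2 gave 6.10, 5.72, 5.90 and 6.10 on Control arrays 1 to 4 and 6.69, 6.79, 6.22 and 5.72 on Dex arrays 1 to 4. Dex 1, 2 and 3 lay above all Control arrays and Dex 4 equaled the lowest Control array, Control 2, at 2 decimals. For this probe the log2 fold change was 0.40 with a 95% confidence interval of -0.19 to 1.00 (limma adjusted p = 0.668).

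Tgfbr1 probe 3 gave 4.81, 4.57, 4.86 and 4.98 on Control arrays 1 to 4 and 6.02, 6.40, 4.28 and 3.89 on Dex arrays 1 to 4. Dex 1 and 2 lay far above the Control arrays and Dex 3 and 4 lay below them. For probe 3 the log2 fold change was 0.34 with a 95% confidence interval of -0.94 to 1.62 (limma adjusted p = 0.879). On Dex 1 and 2 all 3 probes of Tgfbr1 were therefore above every Control array, whereas on Dex 3 and 4 only probe 1 was so on both.

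The disagreement was measured within each array as the log2 signal of probe 1 minus the mean of probes 2 and 3, a quantity chosen after the values were seen. It was 0.33, 0.47, 0.05 and 0.41 on Control arrays 1 to 4 and 0.78, 0.94, 1.18 and 1.70 on Dex arrays 1 to 4. All Dex arrays lay above all Control arrays, with means of 0.31 ± 0.18 (SD, n = 4) and 1.15 ± 0.40 (SD, n = 4). The difference of 0.84 is given as a description, with no test, since the quantity was built from the pattern seen. Which transcripts each probe detects was not tested.

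**Figure D3:**
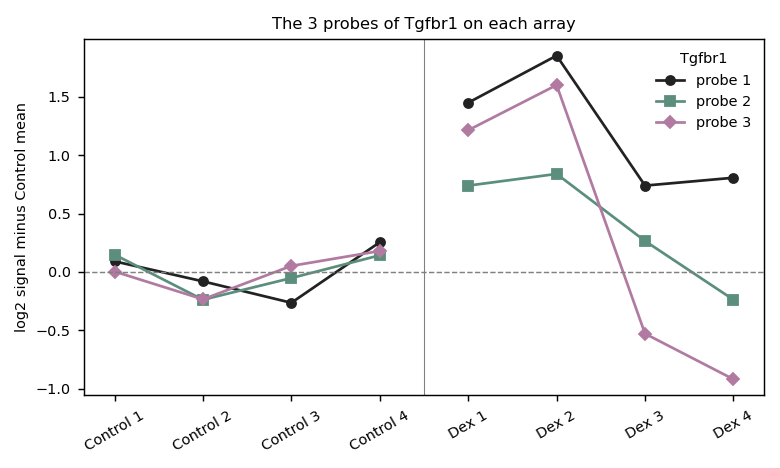
Log2 signal of the 3 Tgfbr1 probes on each array, as the difference from that probe's own Control mean (vertical axis), with arrays along the horizontal axis. The probes lie close together on the Control arrays, all lie above 0 on Dex 1 and 2, and spread on Dex 3 and 4, where probe 1 stays above 0 and probe 3 falls below it.

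The type II receptor Tgfbr2, which binds the ligand first, gave 6.81, 6.74, 6.16 and 6.78 on Control arrays 1 to 4 and 7.30, 7.69, 6.33 and 6.52 on Dex arrays 1 to 4. Dex 1 and 2 were the highest arrays, Dex 3 and 4 lay among the Control arrays, and Control 3 was the lowest of all. Dex minus Control was 0.34 with a 95% confidence interval of -0.42 to 1.10 (limma adjusted p = 0.782).

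Tgfbr3, or betaglycan, a co-receptor that presents ligand to Tgfbr2, lies at chr14:3239308-3239367 on the plus strand. It gave 6.91, 6.73, 6.25 and 6.19 on Control arrays 1 to 4 and 6.00, 5.91, 7.23 and 7.40 on Dex arrays 1 to 4. Here the Dex arrays were divided in the opposite way from Tgfb1, with Dex 3 and 4 above all Control arrays and Dex 1 and 2 below them. Its log2 fold change was 0.11 with a 95% confidence interval of -0.79 to 1.01 (limma adjusted p = 0.947).

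Among the receptor-activated SMADs, Smad2 (chr18:73309475-73309534, plus strand) gave 8.86, 8.71, 8.82 and 8.9999 on Control arrays 1 to 4 and 9.03, 9.03, 8.57 and 8.70 on Dex arrays 1 to 4. Dex 1 and 2 lay just above the Control arrays and Dex 3 and 4 just below them, over a range under that of Tgfb1. For Smad2 the log2 fold change was -0.01 with a 95% confidence interval of -0.40 to 0.38 (limma adjusted p = 0.986).

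Smad3 was dim, and was above background on Control 2, 3 and 4 and on Dex 1 and 4. It gave 3.32, 3.59, 3.14 and 3.02 on Control arrays 1 to 4 and 5.20, 2.50, 2.43 and 2.64 on Dex arrays 1 to 4. Dex 1 was the highest array and the other Dex arrays were the lowest. Its log2 fold change of -0.07 had a 95% confidence interval of -1.45 to 1.31 (limma adjusted p = 0.978), too wide to tell a rise from a fall. The 60 bases of this probe map across 7056 bases of the minus strand of chromosome 8 (chr8:67823679-67830734), so that the positions given for it include sequence that the probe skips.

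The common partner Smad4 (chr18:70505768-70505827, minus strand) varied little. It gave 9.18, 9.14, 9.07 and 8.996 on Control arrays 1 to 4 and 9.03, 8.96, 8.81 and 8.80 on Dex arrays 1 to 4. Each Dex array was below the Control array of its own number, but Dex 1 exceeded Control 4. Smad4 had a log2 fold change of -0.20 with a 95% confidence interval of -0.52 to 0.13 (limma adjusted p = 0.705), which holds differences of 0.699- to 1.09-fold.

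The inhibitory Smad7 (Madh7 on the array, chr18:72396277-72396336, plus strand) gave 10.71, 10.69, 11.13 and 11.05 on Control arrays 1 to 4 and 10.62, 10.43, 10.69 and 10.66 on Dex arrays 1 to 4. The Dex arrays were all below the Control arrays, as they were for 4.5% of all probes, but Dex 3 and Control 2 were equal at 2 decimals. The means were 10.90 ± 0.23 (SD, n = 4) and 10.60 ± 0.12 (SD, n = 4). The log2 fold change was -0.30 with a 95% confidence interval of -0.68 to 0.09 (limma adjusted p = 0.606).

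**Figure D4:**
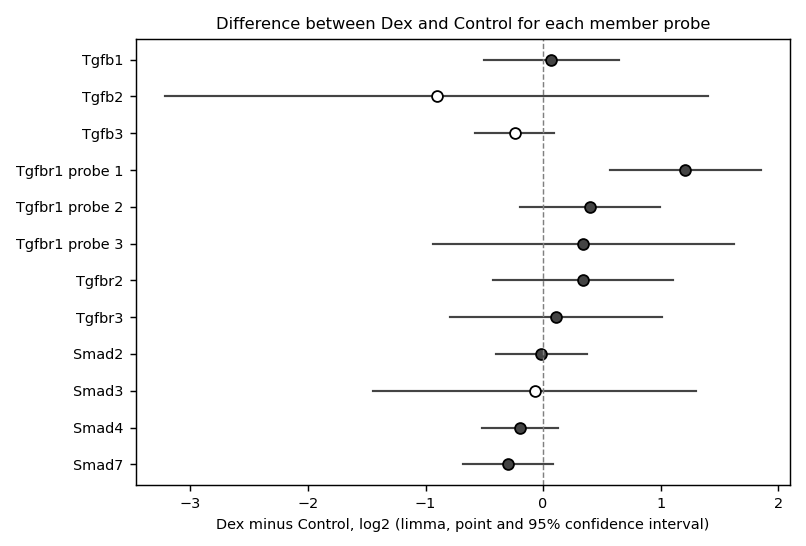
Log2 fold change, Dex minus Control, of each member probe (points) with its 95% confidence interval from limma (lines). Open points are probes that were not well above background on all 8 arrays. The interval of Tgfbr1 probe 1, from 0.57 to 1.85, is the one that does not hold 0, and no probe passed after adjustment.

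The spread between arrays was larger in Dex than in Control for 10 of the 12 member probes, as it was for 75.4% of all probes. The median SD over the members was 0.20 in Control and 0.51 in Dex, against 0.28 and 0.50 over all probes. Dex 1 and 2 lay on 1 side of all Control arrays and Dex 3 and 4 on the other for 4 of the 12 probes, those of Tgfb1, Smad2 and Tgfbr3 and probe 3 of Tgfbr1. This pattern was noticed after the values were seen, and 16.7% of all probes showed it (8.84% with Dex 1 and 2 above, as 3 of the members, and 7.83% with them below, as Tgfbr3). Dex 1, 2 and 4 shared a slide and Dex 3 lay on another. The number of probes above background divides these arrays in the same way, and the part of that number or of the slide in the result was not tested.

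The other genes of the pathway were counted on a list of 83 genes, of which 77 were on the array, each by its brightest probe. Of these, 2 rose (Itgae and Bhlhe40), 1 fell (Fn1) and 74 did not pass (limma adjusted p over all probes). Of all probes 0.563% rose and 0.215% fell. In sign 31 were positive and 46 negative, with a median log2 fold change of -0.07. All 3 that passed were among the 18 transcriptional targets on the list, where 11 genes were positive and 7 negative, with a median of 0.09. These 3 did not move in 1 direction.

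Itgae, the integrin alpha E chain (CD103) that anchors lymphocytes to epithelial E-cadherin and is a known TGF-beta target, gave 10.64, 10.57, 10.70 and 11.21 on Control arrays 1 to 4 and 14.58, 14.49, 15.04 and 15.07 on Dex arrays 1 to 4. All 4 Dex arrays lay far above all Control arrays. It rose by 4.02 on the log2 scale, with a 95% confidence interval of 3.51 to 4.53 (limma adjusted p = 0.000216), or 16.2-fold. Its other, dimmer probe differed by 0.24 on that scale (limma adjusted p = 0.866), so that the rise rests on 1 of 2 probes. With slide as a fixed block the log2 fold change of the brighter probe was 4.41 and the adjusted p was 0.120.

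Bhlhe40 (Bhlhb2 on the array), a transcriptional repressor, gave 6.96, 7.33, 7.97 and 7.87 on Control arrays 1 to 4 and 9.31, 9.19, 9.02 and 8.89 on Dex arrays 1 to 4. Every Dex array was above every Control array, and the Control arrays were the more spread. It rose by 1.57 on the log2 scale, with a 95% confidence interval of 0.99 to 2.15 (limma adjusted p = 0.0376). With the replicate number as a block it no longer passed (adjusted p = 0.181), and the same was true when any 1 of the 8 arrays was left out (adjusted p of 0.0660 to 0.160). In those leave-one-out fits its log2 fold change ran from 1.38 to 1.72. Nor did it pass with 75th percentile scaling (limma adjusted p = 0.0933) or with slide as a fixed block (2.06, adjusted p = 0.619).

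Fn1, the matrix protein fibronectin, gave 13.14, 13.54, 13.79 and 14.06 on Control arrays 1 to 4 and 10.54, 11.47, 11.86 and 12.14 on Dex arrays 1 to 4. The groups did not overlap, and Dex 1 was the farthest below. It fell by 2.13 on the log2 scale, with a 95% confidence interval of -2.97 to -1.29 (limma adjusted p = 0.0484). On the log2 scale its second probe was at -2.07 (limma adjusted p = 0.0494). Without any 1 of the 8 arrays it no longer passed (adjusted p of 0.0652 to 0.173), and its log2 fold change then ran from -2.34 to -1.81. On slide 1 alone, Dex 3 minus Control 1 was -1.28.

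Of the targets that did not pass, Id1 and Id3, which encode inhibitors of E proteins and respond to BMP as well as TGF-beta signals, had log2 fold changes of -1.02 (limma adjusted p = 0.363) and -0.82 (adjusted p = 0.193). The 3 probes of Id3 ran between -0.76 and -0.82, and all had Dex arrays below all Control arrays. Junb, an AP-1 subunit, was at 0.65 (limma adjusted p = 0.348).

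The other roles held no gene that passed. Among 16 other ligands of the superfamily the log2 fold changes ran from -0.93 to 0.97, and those named by size were Inhbb (activin beta B, 0.97), Bmp6 (0.79) and Gdf5 (0.43). Among 10 other receptors they ran from -0.97 to 0.36, led by the type I receptors Acvr1c (-0.97) and Acvrl1 (-0.58) and the type II receptor Bmpr2 (-0.72). The 4 other SMADs lay between -0.25 and 0.16, among them the BMP-activated Smad1 (0.16) and Smad5 (-0.08) and the inhibitory Smad6 (-0.15). Limma adjusted p-values of these 9 named genes ran from 0.364 upward.

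Among 14 genes of ligand storage and activation, the log2 fold changes of the integrin chains Itgav and Itgb6, which release latent TGF-beta, were -0.67 and -0.60, and that of the latency protein Ltbp1 was -0.59 (limma adjusted p of 0.566, 0.786 and 0.448). Itgb6 was above background on all 4 Control arrays and on 2 of 4 Dex arrays. Among 17 SMAD cofactors and regulators, the zinc finger repressors Zeb2 and Zeb1 had log2 fold changes of -1.35 and -0.54 (limma adjusted p of 0.217 and 0.166), where Zeb2 was above background on all 4 Control arrays and on 1 of 4 Dex arrays, and the decoy receptor Bambi had 0.35 (adjusted p = 0.699). The Zeb1 means were 12.15 ± 0.11 (SD, n = 4) on the Control arrays and 11.61 ± 0.05 (SD, n = 4) on the Dex arrays. Both Zeb1 probes had no overlap between the groups.

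**Figure D5:**
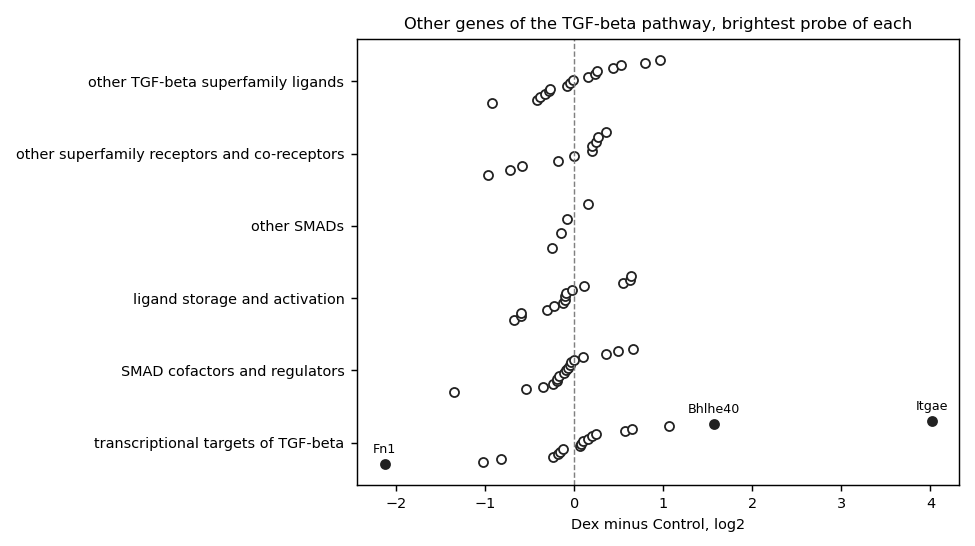
Log2 fold change, Dex minus Control (horizontal axis), of the brightest probe of each other pathway gene on the array, in rows by role. Filled points passed a limma adjusted p of 0.05, which were Itgae and Bhlhe40 on the higher side and Fn1 on the lower, all among the targets, and open points did not.

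Markers of other cell types were set beside these results, since TGF-beta receptors and Fn1 are also expressed by cells other than thymocytes. Of 10 macrophage markers 9 were on the array, and all 9 were above background on all 8 arrays. None passed the test, 6 of 9 were positive with a median log2 fold change of 0.21, and Mrc1 and C1qc had Dex arrays above all Control arrays (2.12 and 0.97, limma adjusted p of 0.0870 and 0.327). The linear signals of the 9, which came mostly from Lyz, summed to 4449 to 6124 in Control and 4311 to 8737 in Dex. Of 7 fibroblast markers 6 were on the array, of which 2, Col1a1 and Col1a2, were above background on every array, and Pdgfra and Lum were so on none. None of the 6 passed, 5 were positive with a median of 0.60, and Pdgfrb had no overlap between the groups (1.72, limma adjusted p = 0.160). The summed signal of the 6 was 697 to 1114 in Control and 524 to 1439 in Dex. All 6 endothelial markers were on the array, and 1 of them, Pecam1, passed, at 1.36 higher in Dex on the log2 scale (limma adjusted p = 0.0207). Vwf had all Dex arrays below all Control arrays (-0.53, limma adjusted p = 0.302). Of the 6, 4 were positive, with a median of 0.43, among them Tek, which was above background on no array. Their summed signal, most of it from Vwf and Kdr, was 1860 to 2428 in Control and 1245 to 1726 in Dex. No marker of the other lists passed. On the array were 5 epithelial markers (5 positive, median 0.33), 4 B cell markers (2 positive, median 0.09), 4 platelet and megakaryocyte markers (1 positive, median -0.12) and 2 erythroid markers (2 positive, median 0.55). The part of these cells in the values of Tgfbr1 and Fn1 was not tested.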

How the data were processed

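Cy3-labeled cRNA made from total RNA of the cultures was hybridized to 1-color Agilent Whole Rat Genome 4x44 arrays. The labels do not say whether each deposited array stands for a separate culture. The deposited intensity values (processed signals of Feature Extraction 9.5.3.1 at its 1-color defaults) are background-subtracted and not normalized between arrays, and per the file headers probe positions refer to build rn3. The flags for other spot qualities (above background, saturation, outlier) are the deposited 0 or 1 values, which have no unit. The authors also deposited log2 values, quantile normalized and summarized by median polish, with which the values here correlated at 0.999998 or more on every array. The study states 3 biological replicates a group, and all 4 deposited arrays of each group were used.

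Control spots and outlier spots were left out, which left 16 of 41012 probes with a missing value. Log2 intensities were quantile normalized over spots, and spots of a probe were summarized by their median. A missing value dropped that array from the probe's fit. Dex was tested against Control with limma 3.58.1 in R 4.3.3 (lmFit, eBayes, no covariate, two-sided) with Benjamini-Hochberg adjustment over all probes. Tested on simulated data of this comparison with 40996 probes, the procedure recovered 14% of the probes changed by 1 on the log2 scale and 60% of those changed by 2. The simulation drew independent normal noise with the same SD in both groups. It held no slides, no larger spread in Dex and no split of the Dex arrays, so rates in the real data may differ.

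The genes named are all members with every probe, the pathway genes that passed, up to 3 more per role by the size of the log2 fold change, taken from probes above background on all arrays of whichever group is brighter, and the 5 genes most like the member with the lowest adjusted p. Id3's other probes, the second Itgae probe and the markers named were added after their values were seen. The members and lists were chosen with earlier results of these data known. Of the pathway list, 6 genes were not matched to a probe by name.

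Replicate numbers were taken to pair the cultures because deviations from the group means correlated over probes at 0.397, 0.129, 0.550 and 0.184 for numbers 1 to 4. Unlike numbers correlated as highly in part, with 0.401 for Control 1 and Dex 2, 0.188 for Control 2 and Dex 1 and 0.392 for Control 3 and Dex 4, so the values divide numbers 1 and 2 from 3 and 4 more than they single out each pair. Alternatives were another scaling, normexp background correction (offset 50), the deposited table, a filter on dim probes, outlier spots kept, a replicate block, slide as a fixed or random block, array weights, the signal to noise statistic (one-tailed nominal p of 0.01, absolute fold of 1.2, against a null that pools every probe under the 70 possible divisions of the arrays, where the study permuted samples and probes) and leaving out each array. The number of arrays limits the precision.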

Additional observations from a re-analysis of the deposited data

Results flagged for a closer look

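Of 66 groups of 4 arrays checked, over 33 probes, 4 held an array that stood apart from the other 3, by a gap to the nearest array divided by the group's range above Dixon's 95% critical value. Chance gives about 1 in 20 groups. Among the members, Control 3 gave a log2 signal of 6.16 for Tgfbr2 while the other Control arrays gave 6.74 to 6.81 (ratio 0.896). Dex 1 gave 5.20 for Smad3 while the other Dex arrays gave 2.43 to 2.64 (ratio 0.926), and the Smad3 probe was above background on Dex 1. Among the other pathway genes, Control 3 gave 5.90 for Itgb6 while the other Control arrays gave 4.79 to 4.96 (ratio 0.846). Dex 1 gave 11.68 for Zeb1 while the other Dex arrays gave 11.58 to 11.59 (ratio 0.906), a distance that is small beside that to the Control arrays.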

How the results depend on the processing

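Besides the leave-one-out fits, no member passed with normexp, the deposited table, dim probes left out, outlier spots kept or the replicate block. Slide as a fixed block leaves Dex 3 minus Control 1, so it is given by the size of the difference only. Under 75th percentile scaling, slide as a random block and array weights 1 member passed. By the signal to noise statistic, at its unadjusted cutoff, 1 member was also called. Each time this was Tgfbr1 through probe 1, higher in Dex. In the leave-one-out fits 0 passed. The cause was not tested. The probes called over all genes, 319 (231 higher, 88 lower), became 166 (133 and 33) under 75th percentile scaling and 915 (498 and 417) with normexp. They were 562 (388 and 174) with dim probes left out and 81 (75 and 6) with the replicate block. With slide as a random block they were 1838 (1116 and 722), and with array weights 908 (638 and 270). The signal to noise statistic called 2781 (1469 and 1312), and 96 to 249 were called with 1 array left out. The replicate block changed no call of a member and, of the other pathway genes named, that of Bhlhe40. Of the pathway list 3 genes had passed. With slide as a random block 5 did, by the signal to noise statistic 5, and with 1 array left out 1 in every fit.

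The log2 fold change of Tgfbr1 probe 1 stayed positive in all 18 settings (0.59 to 1.38), as did that of probe 2 (0.12 to 0.62). Those of Tgfb3 (-0.45 to -0.037), Smad4 (-0.37 to -0.10) and Smad7 (-0.37 to -0.023) stayed negative. Probe 2, Tgfb3, Smad4 and Smad7 passed in no setting. Among the other pathway genes named, Zeb1 passed in 3 settings, Id3 in 1 and Junb in 1. Sizes also moved, with log2 fold changes over the settings of 0.044 to 0.88 for Junb and -2.32 to -0.19 for Zeb2. Bmpr2 ran from -1.73 to -0.12 and Id1 from -2.18 to -0.66. The following signs turned. Under 75th percentile scaling Tgfbr3 was -0.062 and Smad2 0.022, and with normexp Smad3 was 0.050. With slide as a random block Smad2 was 0.033 and Smad3 0.063. With array weights Tgfbr3 was -0.22, Smad2 0.089, Smad3 0.78, Gdf5 -0.015 and Smad5 0.0032. With slide as a fixed block, which leaves Dex 3 minus Control 1, Tgfb1 was -0.46, Tgfb2 2.70, Tgfbr1 probe 3 -0.53, Tgfbr2 -0.48, Smad1 -0.026, Smad6 0.13, Itgb6 1.26 and Bambi -0.51. Leaving out 1 array gave -0.74 to 0.18 for Smad3, -0.080 to 0.075 for Smad2, -0.16 to 0.036 for Smad5, -0.078 to 0.22 for Tgfb1, -0.078 to 0.76 for Tgfbr1 probe 3 and -0.14 to 0.35 for Tgfbr3, 0.10 to 0.55 for Tgfbr2, -1.10 to -0.21 for Itgb6, -0.89 to -0.37 for Itgav, 0.13 to 0.72 for Gdf5, and for Tgfb2 -1.72 without Control 1 and -0.03 without Control 2. Tgfb2 and Smad3 were not tested with dim probes left out, because no group had them above background on all arrays.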

Other observations

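Tgfbr1 probe 1 was compared with the brightest probe of 18352 genes by the root mean square distance of their log2 signals over the 8 arrays, each probe centered on its own mean. The nearest genes were Scarf1, a scavenger receptor (0.112), Cd200r1 (Mox2r on the array), an inhibitory receptor of myeloid cells (0.128), RGD1309543 (0.158), Trem1, an activating receptor of myeloid cells (0.161), and Mthfd1l, a mitochondrial enzyme of folate metabolism (0.163). Scarf1 gave a log2 signal of 6.43, 6.39, 5.98 and 6.58 on Control arrays 1 to 4 and of 7.62, 7.95, 6.98 and 7.19 on Dex arrays 1 to 4. Like Tgfbr1 probe 1 it was lowest on Control 3 and highest on Dex 2, a likeness that its choice by distance over these arrays favors. None of the 5 passed an adjusted p of 0.05 in limma.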
